A study of Mus musculus with 21 samples.

Results

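The 36 genes described here encode the machinery by which secreted and membrane proteins enter the endoplasmic reticulum (ER), fold there and leave it. They were taken by gene symbol from a fixed list, and all 36 were present in both deposited tables of gene levels, out of 23614 and 22945 genes. By role they comprise 11 genes of targeting and translocation, 9 of folding and the ER stress response, 10 of the COPII coat, 2 p24 cargo receptors, 3 subunits of the COPI coat and 1 ER-shaping gene. Values are TPM, a level of RNA scaled for gene length and to the same total in each library.

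The study sorted cells from the mouse main olfactory epithelium by mCherry, a red fluorescent protein that marked cells with an active transgene. Every mouse carried a tetracycline transactivator and a tetO construct that answers to it, so no group lacked transgenes. The HT mice were gg8tTA; OMPtTA; tetO-HyperTRIBE_mCherry, in which the RNA-editing enzyme HyperTRIBE has no fusion partner. The MexHT mice were gg8tTA; OMPtTA; tetO-Mex3a_HyperTRIBE_mCherry, in which the RNA-binding protein Mex3a is joined to HyperTRIBE. A further set, gg8tTA; tetO-Mex3a_HyperTRIBE_mCherry, lacked the OMPtTA driver and is called gg8 MexHT. Per the labels, mCherry-positive cells of mice with both drivers were immature and mature olfactory sensory neurons (OSN), those of gg8 MexHT mice were immature OSN, and the mCherry-negative cells served as an internal control within each animal. There were 3 HT OSN, 6 MexHT OSN, 3 HT negative and 5 MexHT negative libraries in 1 table, and 2 gg8 MexHT OSN and 2 gg8 MexHT negative libraries in another. Ages were not among the labels. The tables were scaled separately and their library names carry different dates. So an effect of the driver cannot be told apart from one of the library date or of any difference in library preparation. The labels number the animals, and OSN and negative libraries of 1 number share a mouse.

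Proteins bound for the cell surface carry a signal sequence that the signal recognition particle (SRP) reads as it leaves the ribosome. The particle docks the ribosome at the Sec61 channel, where the TRAP complex and TRAM assist entry of the chain. Inside the ER, chaperones and disulfide isomerases fold the chain, and when unfolded protein builds up, the unfolded protein response raises many of these genes through Xbp1, Atf6 and Atf4. COPII vesicles carry folded cargo to the Golgi, p24 receptors load some of it, and COPI vesicles return escaped ER proteins. In OSN the ER makes odorant receptors, which are membrane proteins, and a receptor-driven unfolded protein response is known to take part in receptor choice.

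The promoters of 5 folding genes held a short element of the ER stress response, and these are shown because they hold it. Xbp1, Sdf2l1, Dnajb9 and Pdia4 held no ERSE or ERSE-II match in this window, and their levels between libraries are given further on beside those of the other 5. The ERSE motif was searched as CCAAT and CCACG with any 9 bases between them, ERSE-II as ATTGG and CCACG with any 1 base between them, and the unfolded protein response element (UPRE) as TGACGTGG, on both strands, in the 250 bases before each RefSeq start (GRCm38.p6). The shorter motifs share CCACG or its reverse complement with the ERSE. Of the 36 genes, 30 had an entry, giving 32 promoters. Reep6, Sec61a1, Srp68, Ssr2, Tmed2 and Tram1 had none. Each line below reads 5′ to 3′ on the gene's own strand, with the matched element in capitals and 15 bases around it (5 bases for Hspa5).
Hspa5, chr2:34772020-34772048, plus strand: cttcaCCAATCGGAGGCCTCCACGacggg
Calr, chr8:84847060-84847108, minus strand: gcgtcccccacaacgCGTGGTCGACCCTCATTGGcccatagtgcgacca
Creld2, chr15:88819505-88819553, plus strand: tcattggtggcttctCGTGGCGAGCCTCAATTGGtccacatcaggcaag
Herpud1, chr8:94386362-94386402, plus strand: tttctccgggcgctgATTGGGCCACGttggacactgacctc
Hsp90b1, chr10:86705518-86705671, minus strand: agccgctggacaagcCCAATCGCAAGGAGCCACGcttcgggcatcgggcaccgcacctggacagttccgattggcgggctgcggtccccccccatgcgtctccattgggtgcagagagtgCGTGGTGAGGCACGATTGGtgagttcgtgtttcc
The ERSE lay 65 to 47 bases before the start of Hspa5, which encodes the chaperone BiP. In Calr (162 to 144 bases before the start) and Creld2 (126 to 108) it ran on the opposite strand. Hsp90b1 held 2 matches, 1 on each strand, at 212 to 194 and 107 to 89 bases. Herpud1 held the ERSE-II at 52 to 42 bases. The ERSE occurred in 37 of 32851 mouse promoters (0.113%) and the ERSE-II in 10 (0.0304%). The UPRE occurred in 185 promoters (0.563%), among them those of Sec24d (26 to 19 bases before the start) and Copb1 (28 to 21 bases, opposite strand). GENCODE M21, used here for gene positions, places the starts of Hspa5, Sec24d and Copb1 farther upstream, so the matches of these 3 genes lie in its first exon. A match describes only the letters in this window.

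Whole read counts could be recovered from the TPM values, which put the depth at 7425287 to 12443133 counts per library with both drivers and at 10261268 to 15215673 in the gg8 table. Members other than Srp54a had at least 108 counts in each library. Mex3a, the gene of the construct, stood at 24, 32.1 and 61.5 TPM in HT OSN and at 328 to 1271 TPM in MexHT OSN (median 348), with no overlap. MexHT OSN replicate 5 stood apart from the other libraries of its group, with Mex3a at 1271 TPM, so results resting on it are given with and without it. The 2 gg8 MexHT OSN libraries differed from each other, with Mex3a at 460 and 1632 TPM. With 2 libraries it cannot be said which of them stood apart. Summed markers differed between MexHT and HT OSN: those of mature OSN were at 3871 to 9603 against 14244 to 20495 TPM (12 of 14 markers fell), those of immature OSN at 6677 to 7640 against 4409 to 4457 TPM (9 of 13 rose), and those of macrophages at 217 to 459 against 1052 to 4744 TPM (10 of 10 fell). The defining markers Omp (682 to 1597 TPM in MexHT and 1785 to 2704 TPM in HT OSN) and Gng8 (311 to 403 and 107 to 141 TPM) were present in all OSN libraries. Xist, expressed from the inactive X, was at 0.126, 60.3 and 0.140 TPM in HT OSN and at 58.4 to 140 TPM in MexHT OSN, so the sex makeup of the animals moved with the construct.

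The first question was whether neurons with Mex3a joined to HyperTRIBE held other levels of these RNAs than neurons with HyperTRIBE alone. Of 35 members tested, 5 rose and 3 fell in MexHT OSN, and 6 of the 8 belonged to targeting and translocation. Tram1 showed the largest difference, 2.44-fold lower, followed by the COPII cargo adaptor Sec24d, 1.95-fold lower. None of the 9 folding and stress genes passed the test. Differences of log2(TPM + 1) were tested with limma for all genes whose mean level in the compared libraries reached 1 TPM, and a gene counts as called with a Benjamini-Hochberg adjusted p under 0.05. The 8 called members make 22.9% of those tested, against 36.8% of all 16067 genes tested in this comparison (19.9% higher, 16.8% lower). The libraries of the groups did not overlap for 9 members, a share to be set against 38.4% of all genes. The members' median log2 difference was 0.07, and that of all genes was 0.03. These are bulk libraries, in which fewer cells of a type and less RNA per cell cannot be told apart. The part of the marker and Xist differences in these calls was not tested beyond a fit with Xist as a covariate, in which Tram1 (log2 difference -1.25, limma adjusted p = 0.0364) and Sec24d (-1.0, limma adjusted p = 0.0383) were still called and 2.05% of all genes were called. The other 6 were not called in that fit (limma adjusted p = 0.0742 for Srp72 to 0.311 for Ssr3). Their log2 differences there were 0.57 for Ssr2, 0.58 for Srp72, 0.59 for Sec61g, 0.43 for Sec61b, 0.41 for Sec24c and -0.63 for Ssr3.

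**Figure D1:**
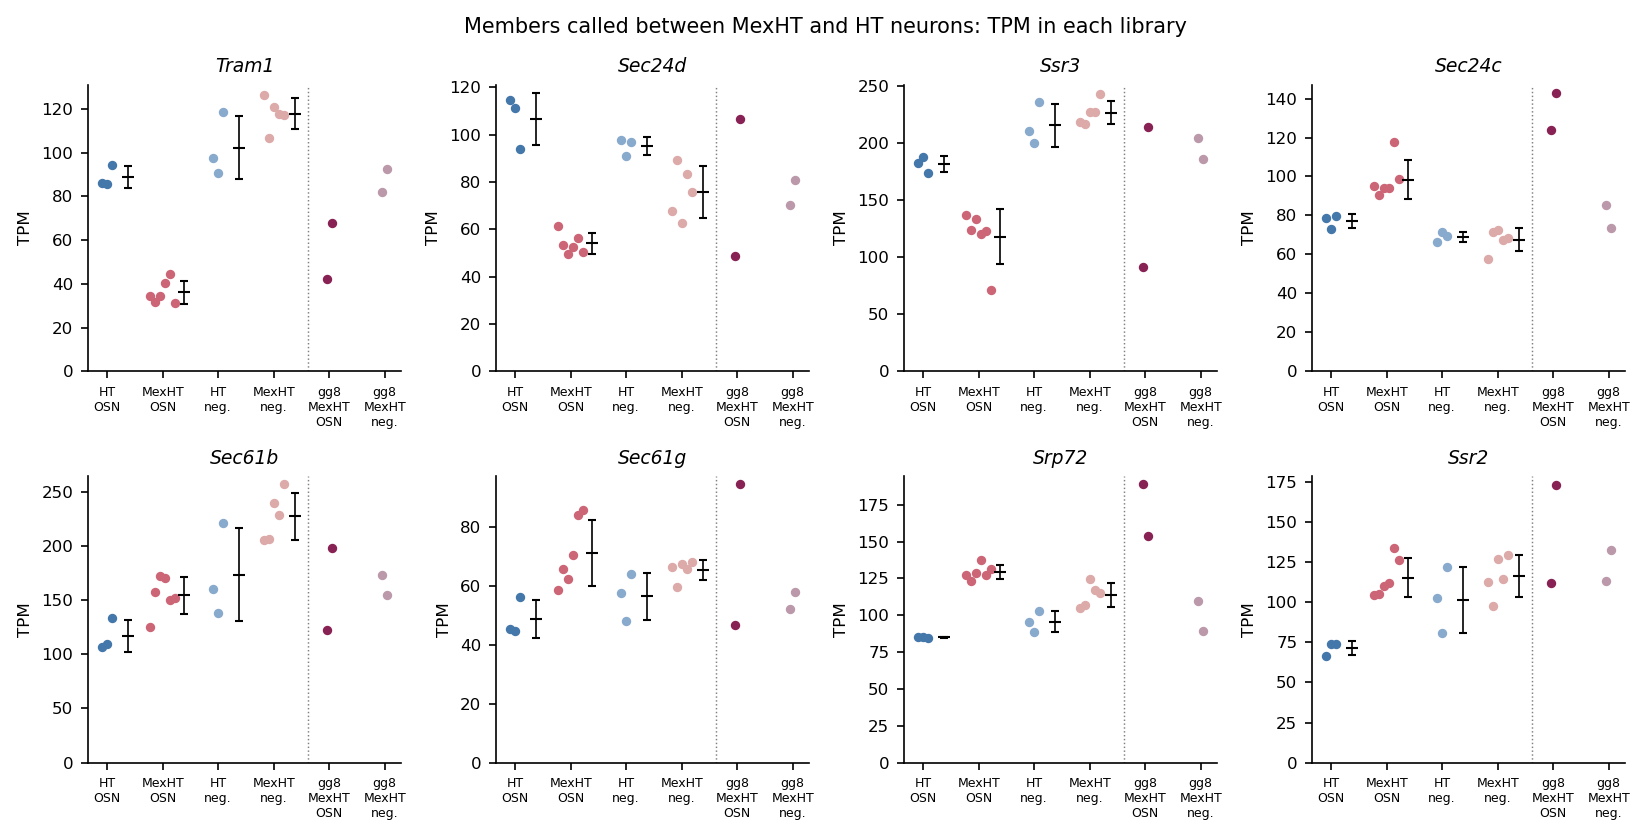
TPM of the 8 members called between MexHT and HT OSN (vertical axes, each from 0) in the 21 libraries, grouped by construct and sorted fraction (horizontal axes). Points are libraries, black bars are the mean ± SD of groups with 3 or more libraries, and the dotted line parts the separately scaled gg8 libraries. Tram1 and Sec24d of MexHT OSN lie at 31.4 to 44.5 and 49.7 to 61.3 TPM, below all HT OSN libraries.

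Among the membrane proteins that assist translocation, Tram1 (chr1:13564698-13589910, minus strand) encodes TRAM, which contacts signal sequences inside the channel. Its level was 86.1, 85.6 and 94.5 TPM in HT OSN, and it ranged from 31.4 to 44.5 TPM with a median of 34.4 TPM in MexHT OSN. All 6 MexHT OSN libraries lay below all 3 HT OSN libraries. The log2 difference was -1.28 ± 0.13 (SE, limma adjusted p = 0.000163), and it was called in all 17 alternative fits. In the negative cells Tram1 stood at 97.8, 90.7 and 119 TPM for HT and 126, 107, 121, 118 and 117 TPM for MexHT, so these groups overlapped. The difference between constructs was larger in OSN than in negative cells, with an interaction of -1.49 ± 0.17 on the log2 scale (limma adjusted p = 0.000176).

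The TRAP complex, which joins the channel and helps weak signal sequences, split by subunit. Ssr3 (chr3:65379655-65392623, minus strand), the gamma subunit, was at 183, 188 and 174 TPM in HT OSN and at 71.3 to 137 TPM (median 123) in MexHT OSN. All MexHT OSN libraries were below all HT OSN libraries, the lowest being replicate 6, and the log2 difference was -0.65 ± 0.19 (limma adjusted p = 0.0209). Ssr2 (chr3:88575876-88588419, plus strand), the beta subunit, was at 66.6, 74.1 and 74.1 TPM in HT OSN and at 105 to 134 TPM (median 111) in MexHT OSN. Here the lowest MexHT OSN library exceeded the highest HT OSN library, with a log2 difference of 0.68 ± 0.11 (limma adjusted p = 0.00135). The alpha and delta subunits were not called, with Ssr1 at a log2 difference of -0.09 ± 0.12 and Ssr4 at -0.13 ± 0.11. Exons of Ssr2 overlap those of Gm10704 on the other strand, and reads of this pair cannot be told apart where counting ignores strand. Ssr3 was not called in 3 of the 17 alternative fits, namely with Xist as a covariate and without HT OSN replicate 1 or 2. Its log2 difference was -0.63, -0.64 and -0.62 in these fits (limma adjusted p = 0.311, 0.0684 and 0.0722).

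Among the Sec61 channel subunits, the small beta and gamma chains were called. Sec61g (chr11:16500530-16508484, minus strand) was at 45.1, 44.6 and 56.0 TPM in HT OSN and at 58.6 to 85.5 TPM (median 68.0) in MexHT OSN. The groups did not overlap, and the log2 difference was 0.53 ± 0.15 (limma adjusted p = 0.0173). Sec61b (chr4:47474658-47483242, plus strand) was at 107, 110 and 134 TPM against 125 to 172 TPM (median 155). MexHT OSN replicate 1 lay below the highest HT OSN library, and the log2 difference of 0.40 ± 0.12 (limma adjusted p = 0.0263) was lost in 6 of 17 alternative fits, median-of-ratios scaling among them. Sec61a1, which encodes the pore itself, was at 151, 158 and 150 TPM against 165 to 307 TPM (median 184). Its libraries did not overlap, yet it was not called (log2 difference 0.38 ± 0.18, limma adjusted p = 0.124). Replicate 5 stood highest at 307 TPM, and the next library was at 213 TPM.

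Of the SRP genes, Srp72 (chr5:76974683-76999937, plus strand), whose protein binds the particle's RNA with Srp68, was at 85.3, 85.5 and 84.8 TPM in HT OSN. In MexHT OSN it was at 123 to 138 TPM (median 128), above all HT OSN libraries. The log2 difference was 0.59 ± 0.08 (limma adjusted p = 0.000566). Its partner Srp68 was at 79.6 to 85 TPM in HT OSN and had a log2 difference of 0.07 ± 0.12. Srp54a, the signal-binding subunit, was listed at 0.26 to 1.19 TPM in all 21 libraries and was below the level tested. It has near-identical copies, so reads may have been split among them, and its level is uncertain.

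The summed level of the 11 targeting and translocation genes was 998 ± 35.6 TPM (SD, n = 3) in HT OSN and 1072 ± 80.3 TPM (SD, n = 6) in MexHT OSN. So the sum differed by less than its spread in MexHT OSN, while members of it moved in opposite directions. The ratio of levels within a library shows this without reference to scaling. Ratios were chosen after the values were seen and are given as descriptions with no test. Tram1 to Sec61a1 was 0.540 to 0.631 in HT OSN and 0.145 to 0.241 in MexHT OSN, and Ssr3 to Ssr2 was 2.35 to 2.74 and 0.565 to 1.31. In the negative cells of both constructs with both drivers, Tram1 to Sec61a1 lay between 0.521 and 0.724 and Ssr3 to Ssr2 between 1.79 and 2.48.

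**Figure D2:**
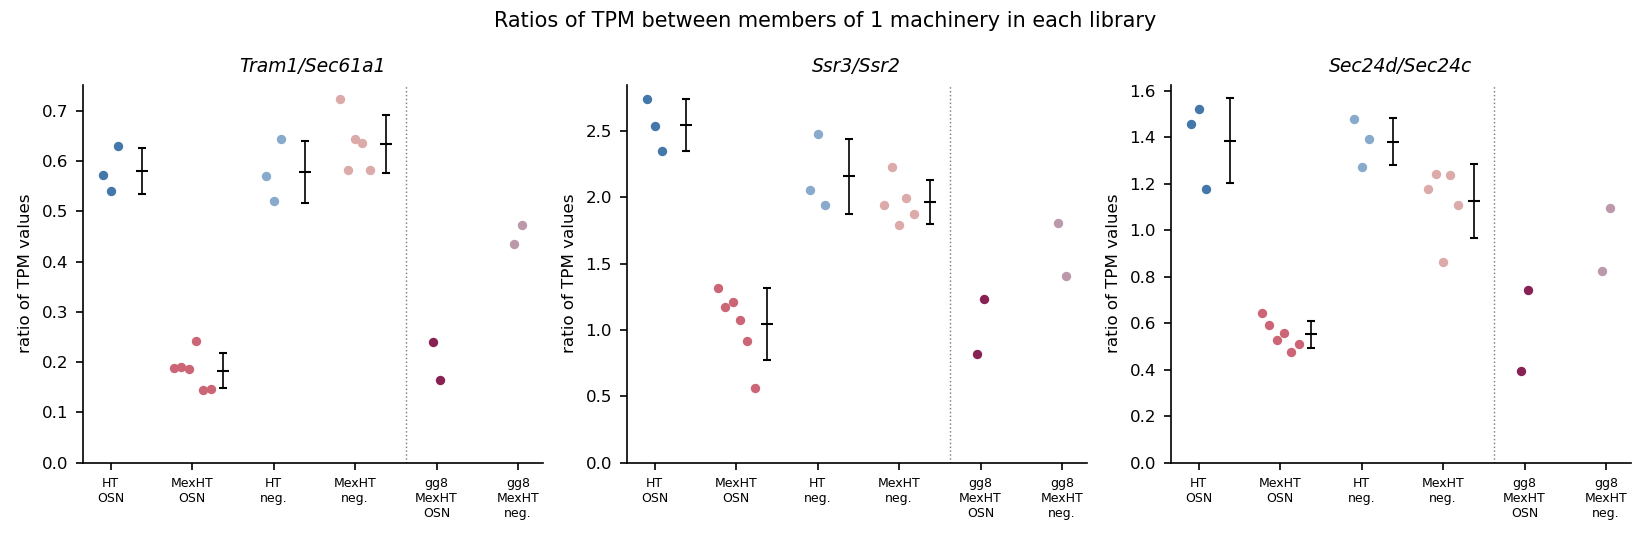
Ratio of TPM values of Tram1 to Sec61a1, Ssr3 to Ssr2 and Sec24d to Sec24c (vertical axes, from 0) in each library by group. Points are libraries and black bars the mean ± SD of groups with 3 or more. In all 3 panels the MexHT OSN libraries lie below the HT OSN libraries, as with Sec24d to Sec24c at 0.478 to 0.644 against 1.18 to 1.52.

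Vesicle budding by COPII starts when the GTPase Sar1 recruits Sec23 and Sec24, and Sec24 picks the cargo. Of the 4 Sec24 paralogs, Sec24d (chr3:123267455-123365641, plus strand) fell from 115, 111 and 94.1 TPM in HT OSN to 49.7 to 61.3 TPM (median 53.1) in MexHT OSN. No MexHT OSN library reached the lowest HT OSN library, and the log2 difference of -0.97 ± 0.11 (limma adjusted p = 0.000229) was called in all 17 alternative fits. Sec24c (chr14:20674308-20694852, plus strand) was at 78.7, 73.0 and 79.9 TPM against 90.4 to 118 TPM (median 94.7). It rose without overlap, by a log2 difference of 0.34 ± 0.10 (limma adjusted p = 0.0255), a call lost in 3 alternative fits. An exon of 6230400D17Rik overlaps Sec24c on the other strand, with the same limit as for Ssr2. That limit also holds for Sec23a with Gm17529, Sec61a1 with Gm44170, Tmed10 with Gm47819 and Hsp90b1 with 1810014B01Rik. Sec24a (0.21 ± 0.23) and Sec24b (-0.13 ± 0.11 on the log2 scale) were not called.

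The ratio of Sec24d to Sec24c was 1.39 ± 0.18 (SD, n = 3) in HT OSN and 0.552 ± 0.059 (SD, n = 6) in MexHT OSN, so the more abundant of the pair, per length, was Sec24d in HT and Sec24c in MexHT OSN. It was 1.27 to 1.48 in HT negative and 0.862 to 1.24 in MexHT negative cells. The ratio of Sec23a to Sec23b overlapped, at 0.272 to 0.324 in HT OSN and 0.249 to 0.375 in MexHT OSN. Sar1b to Sar1a was 0.889 to 1.03 in HT OSN and 0.406 to 0.776 in MexHT OSN. The other COPII genes were not called. Sar1a (0.21 ± 0.11), Sec23a (0.14 ± 0.14), Sec23b (0.17 ± 0.11), Sec13 (0.05 ± 0.08) and Sec31a (0.29 ± 0.17) all had positive log2 differences within 2 SE of 0. The Sar1b difference was -0.47 ± 0.24 (limma adjusted p = 0.15), with HT OSN at 89.6, 95.4 and 77.4 TPM and MexHT OSN at 35 to 80.8 TPM. The summed COPII level was 765 ± 26.7 TPM (SD, n = 3) in HT OSN and 764 ± 30.2 TPM (SD, n = 6) in MexHT OSN.

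The p24 receptors Tmed2 (log2 difference -0.27 ± 0.16) and Tmed10 (-0.09 ± 0.10) were not called. Neither were the COPI subunits Copa (0.14 ± 0.09), Copb1 (0.04 ± 0.15) and Copb2 (0.23 ± 0.11, limma adjusted p = 0.116), although the 3 summed to 573 ± 20.4 TPM (SD, n = 3) in HT and 637 ± 24.6 TPM (SD, n = 6) in MexHT OSN. Reep6, a member of a family that shapes ER tubules, was at 28.0, 24.1 and 19.2 TPM in HT OSN and at 21.5 to 25.4 TPM in MexHT OSN (log2 difference -0.02 ± 0.14).

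**Figure D3:**
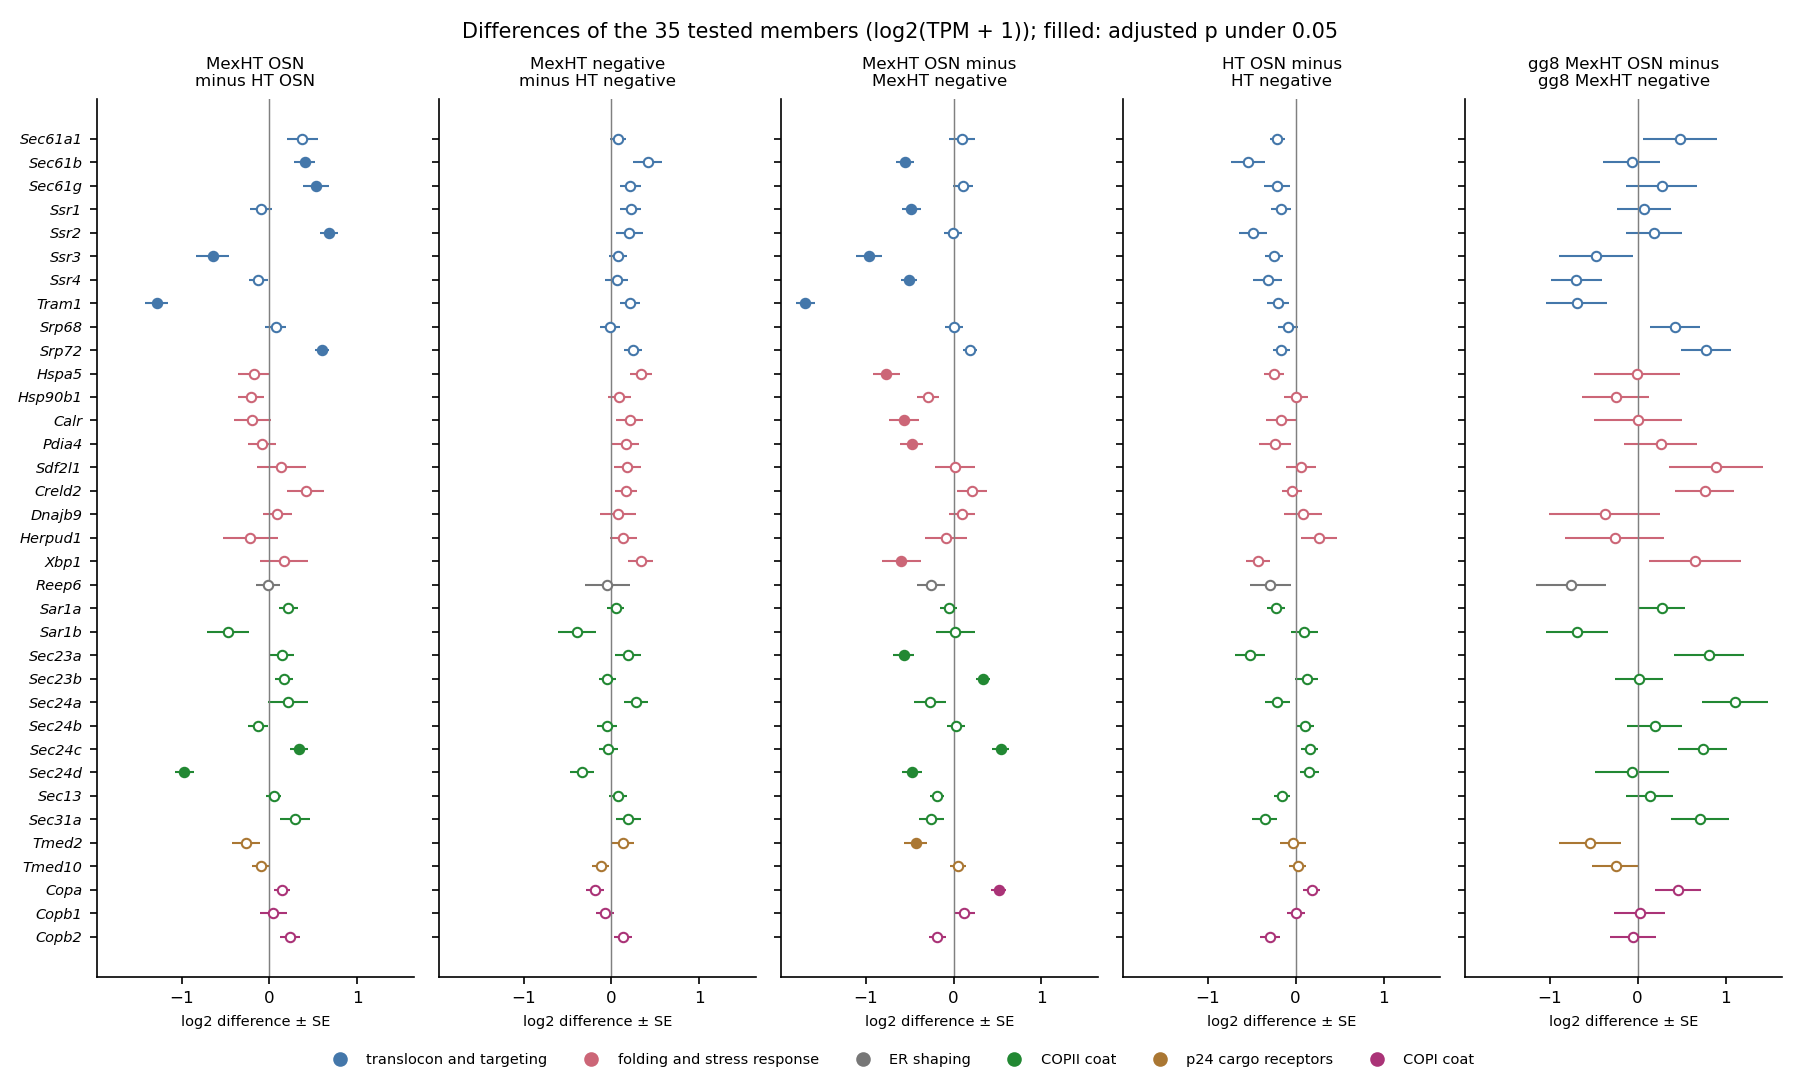
Log2 differences ± SE (horizontal axes) of the 35 tested members, ordered and coloured by role (vertical axis), in 5 comparisons of groups. Filled points have an adjusted p under 0.05 in limma and open points do not. The filled points of the first panel are 6 translocation and 2 COPII genes, and the third panel has 15 filled points.

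None of the folding genes was called between the constructs, and their levels were spread widely among the MexHT OSN libraries. Hspa5 was at 505, 531 and 549 TPM in HT OSN and at 403 to 740 TPM (median 424) in MexHT OSN, where 5 of 6 libraries lay below HT OSN and replicate 5 above it. Its log2 difference was -0.18 ± 0.18 (limma adjusted p = 0.465). Herpud1, which acts in ER-associated degradation, was at 282, 226 and 200 TPM in HT OSN and at 140 to 416 TPM (median 174) in MexHT OSN. Xbp1, the stress transcription factor, was at 66.3, 66.0 and 65.8 TPM in HT OSN and at 58.2 to 142 TPM (median 59.6) in MexHT OSN. So 4 MexHT OSN libraries had less Xbp1 RNA than any HT OSN library, and replicates 5 and 6 had more. Creld2 was the single folding gene without overlap (70.5, 69.7 and 73.2 against 75.7 to 154 TPM), and it was not called (limma adjusted p = 0.143). The other folding genes overlapped, with log2 differences from -0.21 for Hsp90b1 to 0.14 for Sdf2l1.

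In MexHT OSN replicate 5, all 9 folding genes were at their highest level of the 6 MexHT OSN libraries, where 36.4% of all genes tested were. The ratio of its level to the median of the other 5 libraries was 2.64 for Herpud1, 2.42 for Xbp1 and 2.36 for Sdf2l1, a BiP-associated protein. It was 1.85 for Creld2, 1.78 for Calr, 1.75 for Hspa5 and 1.54 for the disulfide isomerase Pdia4. It was 1.48 for Hsp90b1 and 1.46 for Dnajb9, a co-chaperone of BiP. So 7 of 9 were past 1.5, a ratio that 20.4% of all genes passed, and the median ratio was 1.78 against 1.09 over all genes. The library was picked for its levels, so these are descriptions with no test.

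Outside the folding genes, Sec24a (1.81), Sec61a1 (1.67) and the outer coat gene Sec31a (1.61) were also high in replicate 5. Sar1b was low there, at 35 TPM or 0.475 of the median of the others, and Tmed2 (0.725), Sar1a (0.788), Copb1 (0.789) and Copb2 (0.798) were below it as well. For the genes that fell in MexHT OSN the ratio was 1.30 (Tram1), 1.07 (Sec24d) and 0.994 (Ssr3), and all remained under the HT OSN libraries in this library too. Mex3a was 3.77 times the median of the others in this library. The stress-response genes Atf4 (929 TPM, 2.28 times), Ddit3 (276 TPM, 3.33 times) and Trib3 (110 TPM, 4.83 times) were high too. Replicate 6 came next for Atf4 (716 TPM), Ddit3 (207 TPM) and Mex3a (679 TPM). The summed mature OSN markers were lowest in replicate 5, at 3871 TPM, and the progenitor markers highest, at 1081 TPM. Their part in the levels of the folding genes was not tested.

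Without replicate 5, 12 members were called between MexHT and HT OSN rather than 8, against 40.5% of all genes. Hspa5 (-0.31 ± 0.08, limma adjusted p = 0.0162) and Hsp90b1 (-0.30 ± 0.10, limma adjusted p = 0.0359) then fell, and Sar1a (0.27 ± 0.08, limma adjusted p = 0.0303) and Copb2 (0.28 ± 0.09, limma adjusted p = 0.0338) rose. A further fit took the replicate number as a block, which these mice only share as a number. MexHT OSN libraries with no HT OSN library of their number, replicate 5 among them, do not enter its difference. Hspa5 (-0.28, limma adjusted p = 0.0494) and Calr (-0.44, limma adjusted p = 0.029) were called in it. That fit called 9 members, against 29.9% of all genes. Without HT OSN replicate 1, or without replicate 2, 4 members were called, against 23.4% and 24.5% of all genes. They were Tram1, Sec24d, Srp72 and Ssr2 in both cases.

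**Figure D4:**
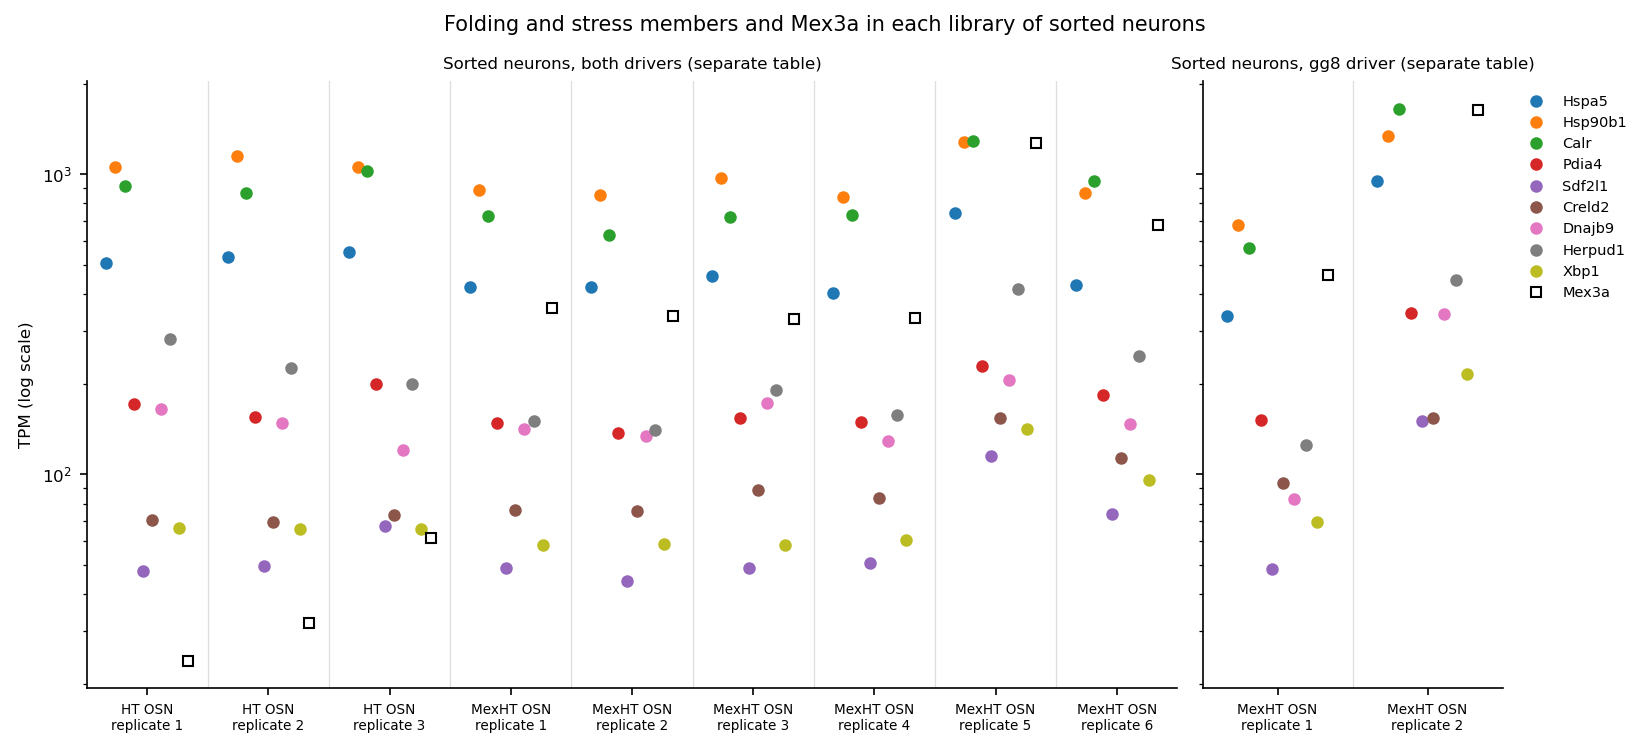
TPM (vertical axis, log scale) of the 9 folding and stress genes (filled circles) and Mex3a (open squares) in each OSN library with both drivers (left) and in the 2 gg8 MexHT OSN libraries (right, scaled separately). Points are spread sideways so that they can be told apart. The folding genes lie highest among the 6 MexHT OSN libraries in replicate 5, and higher in gg8 MexHT OSN replicate 2 than in replicate 1.

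In the mCherry-negative cells, limma called none of the 35 members between MexHT and HT, and 0% of all 16860 genes tested. At an unadjusted p under 0.05 there were 3465 genes, among them 5 members, and the voom fit on recovered counts also called 0 members. The libraries did not overlap for 4 members (Copa, Hspa5, Sec24d and Srp72), as for 8.71% of all genes. The members past the unadjusted threshold were Hspa5 (log2 difference 0.34 ± 0.12), Sec24d (-0.34 ± 0.13), Sec61b (0.41 ± 0.16), Srp72 (0.25 ± 0.10) and Xbp1 (0.33 ± 0.14). The log2 differences of all 9 folding genes were above 0 in this comparison, from 0.07 for Dnajb9 to 0.34 for Hspa5, with a median of 0.16 against -0.01 over all genes. Summed plasma and B cell markers were at 132 to 173 TPM in MexHT negative and 76.3 to 112 TPM in HT negative libraries. Of these markers, 9 of 9 tested were above 0 in log2 difference and none was called. So were 10 of 10 progenitor, 10 of 10 granulocyte, 5 of 5 basal and 11 of 12 sustentacular cell markers, with none called. Counts above 0 were 8 of 10 for macrophages, 8 of 10 for osteoblasts and connective tissue, 8 of 13 for immature OSN and 4 of 7 for Bowman gland. Summed mature OSN markers were at 1221 to 10826 against 8396 to 16739 TPM, with 14 of 14 markers below 0 and none called. Their part in the folding genes' differences was not tested. Negative cells of MexHT mice also held some Mex3a, at 57.8 to 207 TPM against 29.3 to 74.3 TPM in HT mice.

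The interaction of construct and fraction asks whether the difference between MexHT and HT was the same in OSN and in negative cells. It was called for 3 of 35 members, against 12.4% of all genes tested (7.05% positive, 5.37% negative). Besides Tram1 these were Sec24d (-0.63 ± 0.16, limma adjusted p = 0.0204) and Ssr3 (-0.72 ± 0.22, limma adjusted p = 0.0437), all more negative in OSN. Ssr3 was not called in 12 of 24 alternative fits, Sec24d in 3 and Tram1 in none. Without HT OSN replicate 1 or 2, Tram1 was the single member called, against 8.82% and 9.6% of all genes. Without MexHT OSN replicate 5, 4 members were called, with Hspa5 (-0.65 ± 0.13, limma adjusted p = 0.00591) as the fourth, against 14.8% of all genes. For Srp72 (0.35 ± 0.12, limma adjusted p = 0.0588), Sec24c (0.38 ± 0.14, limma adjusted p = 0.092) and Ssr2 (0.47 ± 0.18, limma adjusted p = 0.103) the interaction did not pass.

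The next question was how the sorted neurons differed from the mCherry-negative cells of the same epithelium. In MexHT mice, 15 of 35 members were called between OSN and negative cells, 12 lower and 3 higher in OSN, against 63.4% of all 16522 genes (35.8% higher, 27.6% lower). The fractions did not overlap for 11 members, against 43.1% of all genes. The members' median log2 difference was -0.18 where that of all genes was 0.16, a value that median-of-ratios scaling moved to 0.03, so members are read relative to it. In the negative cells, summed markers of granulocytes reached 12786 to 16850 TPM and those of osteoblasts and connective tissue 15493 to 30024 TPM, against 166 to 399 and 181 to 307 TPM in MexHT OSN, and 10 of 10 markers of each list were lower in OSN. Plasma and B cell markers summed to 132 to 173 TPM in negative and 32.2 to 55.8 TPM in OSN libraries (8 of 9 tested lower). Negative cells also kept OSN markers, with Omp at 46.9 to 1431 TPM. How far these cell types set the levels of the members was not tested.

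Of the translocation genes, 5 were lower in MexHT OSN than in MexHT negative cells. Tram1 was 3.22-fold lower (log2 difference -1.69 ± 0.11, limma adjusted p = 6.66e-08). The TRAP subunits Ssr3 (-0.96 ± 0.15, limma adjusted p = 0.000123), Ssr4 (-0.50 ± 0.09, limma adjusted p = 0.000312) and Ssr1 (-0.48 ± 0.11, limma adjusted p = 0.00245) were lower, and Ssr2 was not called (-0.01 ± 0.10). Sec61b was at 205, 206, 239, 228 and 257 TPM in negative cells and 125 to 172 TPM in OSN, a log2 difference of -0.56 ± 0.10 (limma adjusted p = 0.00048). These 5 genes did not overlap between the fractions.

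Of the 9 folding genes, 4 were lower in MexHT OSN: Hspa5 (-0.76 ± 0.15, limma adjusted p = 0.000827), Xbp1 (-0.60 ± 0.22, limma adjusted p = 0.0316), the lectin chaperone Calr (-0.57 ± 0.17, limma adjusted p = 0.011) and Pdia4 (-0.48 ± 0.13, limma adjusted p = 0.00703). Hspa5 was at 840, 691, 879, 797 and 774 TPM in the negative cells, above every OSN library but replicate 5. The Xbp1 call was lost in 7 of 18 alternative fits. Without replicate 5, 19 members were called, with Hsp90b1, Sec13, Sec24a and Sec31a also lower in OSN, against 64.8% of all genes.

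The coat genes went both ways. Copa, the alpha subunit of COPI, was at 209, 248, 242, 222 and 236 TPM in MexHT negative cells and at 306 to 367 TPM (median 331) in MexHT OSN, without overlap. Its log2 difference was 0.51 ± 0.08 (limma adjusted p = 0.000183), though its exons overlap Ncstn on the other strand. Of the COPII genes, Sec24c (0.54 ± 0.10, limma adjusted p = 0.000408) and Sec23b (0.34 ± 0.08, limma adjusted p = 0.00223) were higher in OSN, and quantile normalization ended the call of Sec23b. Sec23a (-0.56 ± 0.12, limma adjusted p = 0.00128) and Sec24d (-0.47 ± 0.11, limma adjusted p = 0.00222) were lower, so the paralogs of Sec23 and of Sec24 went in opposite directions. The p24 receptor Tmed2 was lower (-0.43 ± 0.13, limma adjusted p = 0.0103).

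In HT mice, 0 of 35 members were called between OSN and negative cells, against 11.3% of all 17027 genes tested (2.18% higher, 9.11% lower). At an unadjusted p under 0.05 there were 6 members (Copb2, Sec23a, Sec31a, Sec61b, Ssr2 and Xbp1) and 5821 of all genes (34.2%), and voom on recovered counts called 0 members. The libraries did not overlap for 16 members, a share to be read against 41% of all genes. All 10 translocation genes tested had log2 differences below 0, from -0.08 for Srp68 to -0.54 for Sec61b, with a median of -0.21 against 0.10 over all genes. With the mouse as a block, which pairs the libraries of each animal, Sec61b (-0.54, limma adjusted p = 0.0208) and Sec31a (-0.35, limma adjusted p = 0.0499) were called lower in OSN, and 29.2% of all genes were called. Tram1 was at 86.1, 85.6 and 94.5 TPM in HT OSN and 97.8, 90.7 and 119 TPM in HT negative cells (-0.20 ± 0.13, limma adjusted p = 0.3). Macrophage markers were higher in HT OSN than in HT negative libraries for 7 of 10 genes, the opposite side from the granulocyte markers. HT negative cells also kept much OSN RNA. Summed mature OSN markers were at 8396 to 16739 TPM there and at 14244 to 20495 TPM in HT OSN, and 0 of 14 were called. The part of this in the members' differences was not tested.

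In gg8 MexHT mice, with 2 libraries in each fraction, limma called 0 of 35 members, against 8.32% of all 16490 genes tested (1.12% higher, 7.2% lower). At an unadjusted p under 0.05 there were 4 members and 5111 of all genes (31%), and voom called 0 members. Sec24a was at 39.0 and 54.4 TPM in OSN and 20.6 and 21.1 TPM in negative cells (log2 difference 1.11 ± 0.37, limma adjusted p = 0.107), and Srp72 at 189 and 154 against 109 and 89.4 TPM (0.78 ± 0.28, limma adjusted p = 0.126). Sec24c (0.74 ± 0.28) and Ssr4 (-0.70 ± 0.29) were the other 2. Tram1 was at 42.1 and 67.7 TPM in OSN and 82.0 and 92.6 TPM in negative cells, without overlap and not called (-0.69 ± 0.34, limma adjusted p = 0.216). The libraries of 17 members did not overlap, where 63.6% of all genes did not. The ratio of Tram1 to Sec61a1 was 0.165 and 0.239 in gg8 MexHT OSN and 0.435 and 0.474 in gg8 MexHT negative cells. Summed mature OSN markers were at 1080 to 1861 TPM in OSN and 11792 to 20153 TPM in negative cells (12 of 14 lower), those of granulocytes at 72.8 to 81.9 and 2980 to 3791 TPM (9 of 10 lower), and those of osteoblasts and connective tissue at 67.9 to 86.5 and 6931 to 7206 TPM (10 of 10 lower). Their part in the members' differences was not tested.

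Among the groups of members, the folding genes had the largest median ratio between the 2 gg8 MexHT OSN libraries. All 9 were more than 1.5 times as high in replicate 2 as in replicate 1, as were 16% of all genes, with a median ratio of 2.89 against 0.877 over all genes. The ratio was 4.10 for Dnajb9, 3.54 for Herpud1, 3.12 for Sdf2l1, 3.10 for Xbp1 and 2.81 for Hspa5. Hspa5 rested at 338 TPM in replicate 1 and 949 TPM in replicate 2, on either side of the negative cells at 542 and 600 TPM. Mex3a was at 460 and 1632 TPM, Ddit3 at 64.5 and 478 TPM, summed progenitor markers at 463 and 1339 TPM, and summed mature OSN markers at 1861 and 1080 TPM in the same libraries. Xist was at 0.441 and 159 TPM, and 16398 and 13917 genes reached 1 TPM. As in MexHT OSN replicate 5, the library with the most Mex3a had the most RNA of the folding genes, a description over few libraries whose cause was not tested. Between gg8 MexHT OSN and negative cells the members' median log2 difference was 0.07 with both OSN libraries, against 0.09 over all genes. It was 0.50 without OSN replicate 1 (-0.08 over all genes) and -0.13 without OSN replicate 2 (0.19 over all genes). A fit without either of them takes the spread of the lone OSN library from the negative cells.

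Other genes of the same pathways, 105 in 7 lists, were examined as context. In MexHT OSN against HT OSN, 17 rose and 15 fell of 103 tested (31.1%, against 36.8% of all genes). Among genes of signal peptide removal, Spcs3, a subunit of signal peptidase, fell from 202 to 54.5 TPM (log2 difference -1.88 ± 0.16, limma adjusted p = 8.62e-05). The catalytic subunits of signal peptidase went apart, Sec11c lower (-0.69 ± 0.13, limma adjusted p = 0.0029) and Sec11a higher (0.91 ± 0.13, limma adjusted p = 0.000831). In this list of 16 genes, 4 rose and 6 fell. The naming rule took called genes in each direction from each list. Of all genes tested in this comparison, 19.9% were higher and 16.8% lower, so opposite calls within 1 complex are given only as a description.

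Of 11 oligosaccharyltransferase genes, which attach sugar chains, 2 rose and 1 fell, the catalytic Stt3b (-0.70 ± 0.17, limma adjusted p = 0.00924). Of 23 genes of folding and ER-associated degradation, 2 rose and 4 fell, among them Derl1 higher (0.53 ± 0.10, limma adjusted p = 0.0036) and Sel1l lower (-0.68 ± 0.15, limma adjusted p = 0.00662). Among 6 genes of the stress sensors, Atf6 fell (-1.12 ± 0.14, limma adjusted p = 0.000392) while Eif2ak3, the gene of PERK, rose (0.74 ± 0.14, limma adjusted p = 0.00276). Of 20 tested genes of COPII assembly and cargo receptors, 2 rose and 3 fell, with Mcfd2 at -0.83 ± 0.14 (limma adjusted p = 0.00193). Of 14 COPI assembly and retrieval genes, 3 rose and 0 fell, with the KDEL receptor Kdelr2 at 0.47 ± 0.11 (limma adjusted p = 0.00701). Of 13 ER-shaping genes, 2 rose and 0 fell, and Reep2 was at 25.6 TPM in MexHT against 3.09 TPM in HT OSN (2.68 ± 0.20, limma adjusted p = 6.21e-05).

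Between the fractions, 26 of these genes were higher and 37 lower in MexHT OSN than in negative cells of 104 tested (60.6%, against 63.4% of all genes). In HT mice 1 was higher and 6 were lower (6.73%, against 11.3%), and in gg8 MexHT mice 1 was higher and 1 lower (1.92%, against 8.32%). Kdelr3, another KDEL receptor, was lower in OSN in all 3 comparisons, by log2 differences of -3.08 ± 0.19, -3.04 ± 0.52 and -3.04 ± 0.49 in that order (limma adjusted p = 4.79e-08, 0.0146 and 0.0272). The sheet-shaping gene Ckap4 was lower in MexHT (-3.20 ± 0.17, limma adjusted p = 1.72e-08) and HT OSN (-3.64 ± 0.51, limma adjusted p = 0.00721). Atl1, a fusion GTPase of ER tubules, was higher in both (1.31 ± 0.14, limma adjusted p = 6.86e-06, and 0.62 ± 0.15, limma adjusted p = 0.0457). The connective tissue and granulocyte markers given above were lower in OSN, as Kdelr3 and Ckap4 were, while Atl1 was higher. The part of these markers was not tested. In the interaction, 7 of the 104 genes were positive and 7 negative calls (13.5%, against 12.4% of all genes), and in negative cells 0 were called between the constructs.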

How the data were processed

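RNA of 21 libraries of sorted cells was measured by total RNA sequencing (papain dissociation, TRIzol, a stranded low-input kit, per the labels' protocols). FastQC, cutadapt, STAR, bedtools and mm10 are named in the submitters' processing notes. The counting program, annotation and strand setting are not given in the sources used here. The authors deposited TPM values in 2 tables with gene symbols, and 27 symbols turned into dates (at most 0.221% of a library's TPM) were left out, leaving 23587 and 22918 genes. Columns were matched to samples by name, and tests stayed within a table.

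Counts were recovered from the TPM steps, with whole counts for 23613 of 23614 genes (tolerance 0.001) and 22775 of 22808 genes (99.86%, tolerance 0.01). Comparisons used limma 3.58.1 in R 4.3.3 (eBayes, trend on) for log2(TPM + 1), two-sided, with only the compared groups in the fit and p-values adjusted over all genes whose mean reached 1 TPM. Fold changes are on that scale. P-values measure the spread between the numbered mice. The main fits of OSN against negative cells and of the interaction did not pair the libraries of a mouse, and the fits with a block did. Alternatives were a pseudocount of 0.1, no filter, median-of-ratios scaling, quantile normalization, voom on recovered counts, the replicate number as a block, all groups in 1 fit, Xist as a covariate and leaving out each library. The fits were also run on simulated data of independent libraries, without shared mice or a library set apart, so that run does not bear on these features. Same-numbered OSN and negative libraries share a mouse per the labels. Deviations of same-numbered OSN and negative libraries correlated at -0.113 to 0.421 in MexHT, 0.183 to 0.475 in HT and 0.018 in gg8 MexHT mice. Those of same-numbered negative libraries of both constructs, which are different mice, correlated at 0.343, 0.417 and 0.23. Gene positions are from GENCODE M21 (GRCm38) and promoters from RefSeq GRCm38.p6.

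Named genes were all 36 members, Mex3a, and from each wider list up to 2 genes in each direction with the largest called difference, a mean of at least 5 TPM and no overlap of libraries. Atf4, Ddit3, Trib3 and the level ratios were chosen after their values were seen. The members, lists and rules were chosen with earlier results of these data known.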

Additional observations from a re-analysis of the deposited data

Results flagged for a closer look

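The 36 genes were each examined in MexHT OSN and in MexHT negative cells, the groups of 4 to 10 libraries, which makes 72 sets of values. In 9 of the 72, 1 library lay far outside the others by Dixon's criterion, which chance meets in about 1 of 20 sets and which 9.87% of such sets met over all genes tested. Of the 9, 5 were high values in MexHT OSN replicate 5: Sec61a1 at 307 TPM, Hspa5 at 739.7 TPM, Hsp90b1 at 1282 TPM, Sec24a at 34.8 TPM and Sec24c at 118 TPM. Over all genes tested, replicate 5 was the library set apart in 7.36% of the MexHT OSN sets. The remaining ones of the 9 were low values. Ssr3 was at 71.3 TPM in MexHT OSN replicate 6, Sec61g at 59.4 TPM in MexHT negative replicate 2, and Srp68 and Sec13 at 75.9 and 126 TPM in MexHT negative replicate 1.

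The difference between MexHT and HT was not the same in OSN and in negative cells for 3 members by the interaction in limma. The interaction was -1.49 on the log2 scale for Tram1, -0.72 for Ssr3 and -0.63 for Sec24d, lower in OSN in each case.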

How the results depend on the processing

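Leaving out libraries moved the count of members called between 4 and 12 for MexHT against HT OSN, 14 and 19 for MexHT OSN against negative cells, 0 and 3 for HT OSN against negative cells, 0 and 6 for gg8 MexHT and 1 and 4 for the interaction, and left it at 0 for the negative cells. For MexHT against HT OSN and for the interaction, the low values came without HT OSN replicate 1 or 2. The high values of these and of MexHT OSN against negative cells came without MexHT OSN replicate 5. The 3 calls in HT OSN came without HT negative replicate 2, and the 6 in gg8 MexHT without OSN replicate 1. With Xist as a covariate 2 members were called between MexHT and HT OSN, against 2.05% of all genes. With all 4 groups in 1 fit 3 were called between HT OSN and negative cells, against 16.4% of all genes. No member's called difference reversed.

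With the replicate block, 9 members were called for MexHT against HT OSN, 16 for MexHT OSN against negative cells, 2 for HT OSN against negative cells, 0 for gg8 MexHT, 0 for the negative cells and 3 for the interaction. Of all genes, the block called 29.9%, 65%, 29.2%, 9.27%, 0% and 15.5% in that order. Between MexHT and HT OSN the samples share only a number, with correlations of 0.113, 0.133 and -0.234 between same-numbered libraries. There the difference rests on same-numbered libraries alone. MexHT OSN libraries with no HT OSN library of their number, replicate 5 among them, do not enter it. With these limits the block added Calr (-0.44) and Hspa5 (-0.28) and lost Sec61g. In MexHT OSN against negative cells it added Sec31a (-0.30).

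Of all genes, the percentage called for MexHT against HT OSN went from 36.8 to 2.05 with Xist as a covariate and to 23.4 without HT OSN replicate 1 (24.5 without replicate 2). For HT OSN against negative cells it went from 11.3 to 29.2 with the block, to 6.23 with voom and to between 3.87 and 24.5 without single libraries. For gg8 MexHT it went from 8.32 to 3.92 with a pseudocount of 0.1, and to between 0 and 22.8 without single libraries. For the negative cells it went from 0 to 0.143 with all 4 groups in 1 fit. For the interaction it fell from 12.4 to 7.14 without HT negative replicate 2. Calls in HT OSN were 371 higher and 1552 lower, 543 and 1232 with quantile normalization and 79 and 982 with voom. In the interaction, 1184 positive and 902 negative calls became 714 and 1053 with median-of-ratios scaling. The causes were not tested. Members other than Srp54a had at least 108 counts in each library, and Srp54a was too low to test.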
